A study of Mus musculus with 16 samples.

Results

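MAP kinase phosphatases and the Sprouty and Spred proteins are brakes on the signalling chain that runs from growth factor receptors through Ras to the MAP kinase ERK. The genes described here were Dusp1, Dusp3, Dusp4, Dusp5, Dusp6, Dusp14, Spry2, Spry4, Spred1 and Spred2, chosen by their symbols as 10 of the 17986 genes whose values were found for all libraries used. The choice was made with earlier results of these data known. The shares over all genes given beside member counts are therefore descriptions only. The 10 genes were read in hippocampal CA1. The mice were males, 3 to 6 months old, of C57Bl6 background, and either wild type or N3 -/- (without Neil3, a DNA glycosylase of base excision repair). Home cage mice had no intervention and gave 2 libraries per genotype. Spatial exploration mice spent 20 min per day for 1 week in an open field arena of 50 cm sides, were killed 20 min after the last session, and gave 3 libraries per genotype. CA1 was cut by laser from unperfused frozen sections of 8 µm, and each library came from 1 mouse. The labels list 16 samples, of which 10 were used, and the 6 samples of the learning condition were not analysed here.

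When a growth factor or synaptic activity switches on ERK, the kinase enters the nucleus and starts transcription of immediate early genes. Among its targets are genes for its own inhibitors: dual-specificity phosphatases, which remove phosphate from the threonine and the tyrosine of the kinase activation loop, and Sprouty proteins, which act higher up, between receptor and Raf. In hippocampal neurons this pathway is known for its part in synaptic plasticity and memory, and transcripts such as Dusp1 are used as activity markers.

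The targeted gene went against the labels. Across the 5 libraries labelled wild type, Neil3 did not exceed 0.05 FPKM, and it was between 8.35 and 15.22 FPKM in the 5 labelled N3 -/- (mean 12.86 ± 2.87, SD, n = 5; difference 12.85 FPKM, exact two-sided permutation p = 0.00794, the smallest that 5 against 5 can give). Which part of the gene was deleted is not given in the sources used here. The groups are therefore called WT-labelled and KO-labelled, and every genotype direction below holds for the labels only. Values were FPKM, fragment counts scaled to transcript length and library depth, as the authors deposited them. They summed to 405718 to 466701 per library, and 11114 to 11623 genes reached 1 FPKM. The 8 CA1 markers used for the check summed to 1194 to 1476 FPKM per library. Those of CA2 and CA3 summed to 111.1 to 294.7 FPKM and those of dentate granule cells to 5.46 to 26.16 FPKM, with their defining gene Prox1 at most 0.5 FPKM. The CA1 marker Wfs1 was lowest in KO-labelled home cage library 2, at 64.88 FPKM against 127.3 to 238.69 FPKM in the other 9 libraries. Another CA1 marker, Fibcd1, was highest in that same library, at 180.19 FPKM against 122.45 to 175.35 FPKM in the other 9. Home cage and exploration values stand in separate blocks of the deposited table, so environment and block cannot be told apart in any exploration result below.

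All 10 genes were measured above 1 FPKM in every library. By the mean over 10 libraries, Dusp6 stood highest at 97.53 FPKM, at the 92.5th percentile of the 11892 genes tested, and its lowest library (74.34) lay above the highest library of any other member. Dusp3 (35.96 FPKM), Spred1 (32.75), Spred2 (29.0) and Spry2 (27.09) followed. Dusp1 (19.04), Dusp14 (18.79) and Dusp5 (18.46) lay close together, and Dusp4 (7.209) and Spry4 (3.968) were lowest, with Spry4 at the 25.9th percentile. From Dusp3 downward each gene overlapped its neighbour in this order. Estimated from the spacing of low FPKM values, a library held 18700000 to 20000000 fragments. Taking the shortest annotated transcript of each gene, the members were covered by an estimated 216 fragments (Dusp4) to 6444 fragments (Dusp6). The lowest values of Dusp4, Dusp5 and Spry4 were then 216, 221 and 224 fragments, and a longer transcript would give more.

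**Figure D1:**
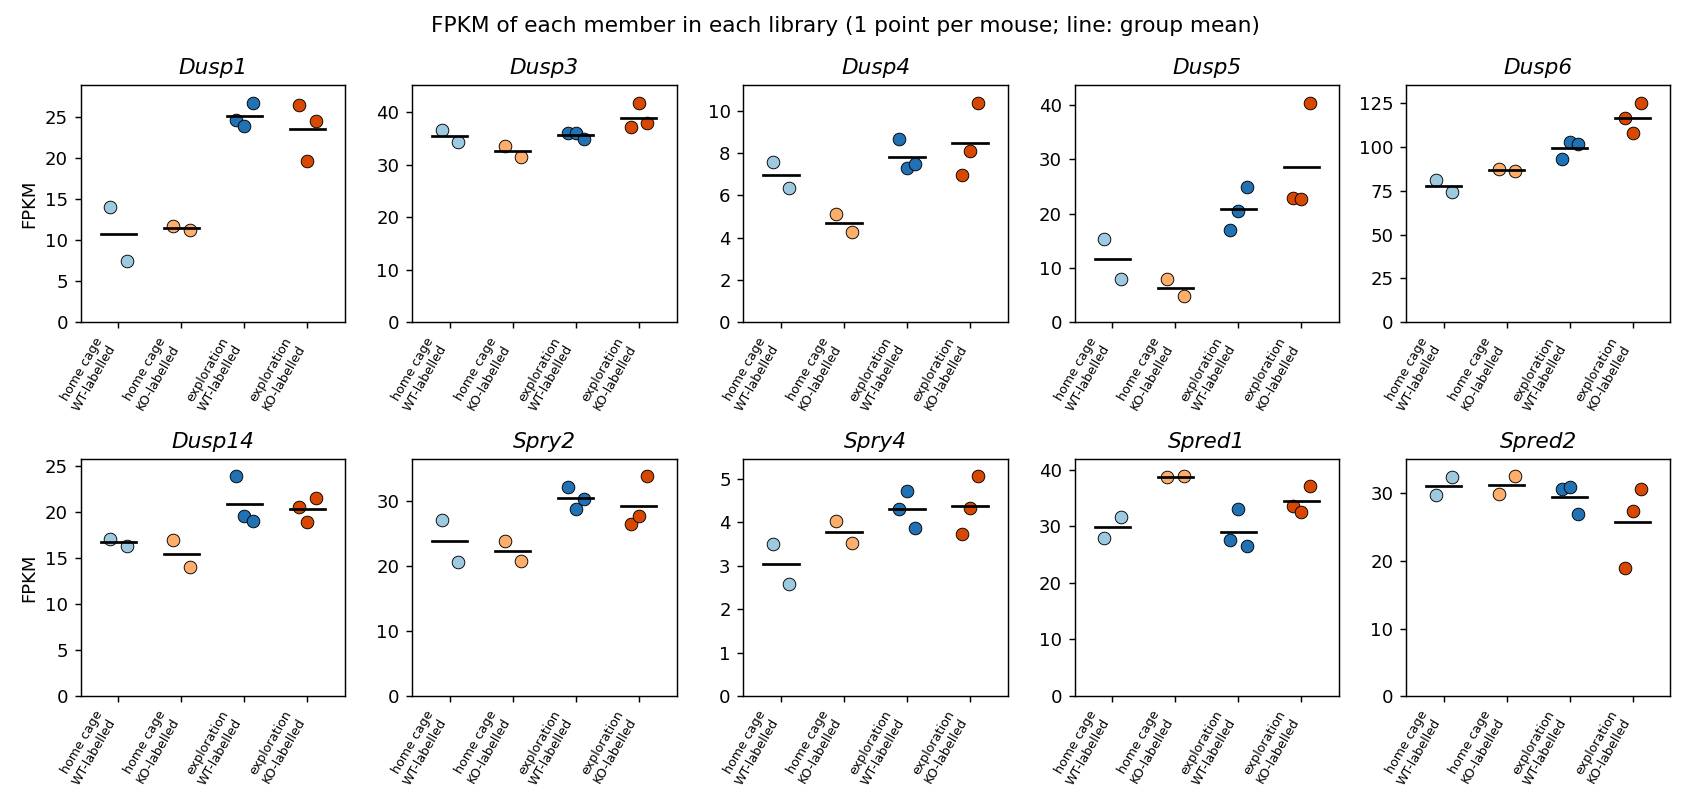
FPKM (vertical axes, from 0) of the 10 genes in each of the 10 libraries, 1 point per mouse, with the mean of each group as a line. In Dusp1, Dusp5, Dusp6 and Dusp14 every exploration point lies above every home cage point; Spred1 and Spred2 show no such separation.

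The first question was how CA1 transcript levels of these inhibitors differed after exploration. Averaged over the genotype labels, 7 of the 10 genes were higher after exploration in limma at an adjusted p under 0.05, the level used for every call below, and 0 were lower. The 7 were Dusp1, Dusp4, Dusp5, Dusp6, Dusp14, Spry2 and Spry4. Over all 11892 genes tested, 12.6% were called higher and 19.2% lower. The median log2 change of the members was 0.35, and that of all genes was -0.033. In 4 of the 10 (Dusp1, Dusp5, Dusp6 and Dusp14) the 6 exploration libraries lay wholly above the 4 home cage libraries, an order that 6.49% of all genes showed, while 10.4% showed the opposite order. Some of the 7 limma calls were lost without home cage library 2 of either label. Without that of the WT label, the averaged rise of Dusp4 went from 0.43 to 0.38 and that of Spry2 from 0.36 to 0.27. Without that of the KO label they were 0.38 and 0.32. Rescaling by median-of-ratios size factors gave 8 of 10 members called higher, against 17.2% of all genes. It also raised the share of higher genes among all calls from 39.7% to 51.9%. The tests compare libraries of bulk tissue, in which fewer cells of a type and less RNA per cell cannot be told apart.

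The largest averaged changes were those of the inducible phosphatases of the nucleus. Dusp1 (MKP-1), which acts on ERK, JNK and p38 kinases, was measured in the WT-labelled mice at 14.01 and 7.53 FPKM in the home cage and at 24.66, 23.88 and 26.78 FPKM after exploration. In the KO-labelled mice it was 11.69 and 11.21 FPKM in the home cage and 26.44, 19.63 and 24.57 FPKM after exploration. All 6 exploration libraries lay above all 4 home cage libraries, and the exploration mean was 2.33 times the home cage mean in WT-labelled and 2.06 times in KO-labelled mice. On the log2(FPKM + 1) scale the rise was 1.21 ± 0.19 (SE) in WT-labelled mice (limma adjusted p = 0.0045) and 0.97 ± 0.19 in KO-labelled mice (limma adjusted p = 0.00479). The WT-labelled rise was 0.80 without WT-labelled home cage library 2 and 1.61 without library 1, and was called in both cases.

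Dusp5, a nuclear phosphatase specific to ERK, had the largest change of the 10 under the KO label and in the average, while under the WT label Dusp1 had the largest. In WT-labelled mice it was 15.34 and 8.01 FPKM in the home cage and 16.98, 20.57 and 24.91 FPKM after exploration. In KO-labelled mice it was 7.89 and 4.86 FPKM in the home cage and 22.84, 22.73 and 40.49 FPKM after exploration. The groups did not overlap under either label, and 1 KO-labelled exploration library stood well above the other 2. The ratio of means was 1.78 under the WT label and 4.5 under the KO label. The rise under the KO label was 1.99 ± 0.29 on the log2 scale (limma adjusted p = 0.00174), and was 1.72 without the library at 40.49 FPKM. Under the WT label the difference was 0.83 ± 0.29 and missed the threshold (limma adjusted p = 0.113; 95% interval 0.20 to 1.47).

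Dusp4 (MKP-2), a close nuclear relative of Dusp1, was called higher under the KO label, where the home cage libraries held 5.13 and 4.27 FPKM and the exploration libraries 6.94, 8.07 and 10.38 FPKM. That rise was 0.72 ± 0.15 on the log2 scale (limma adjusted p = 0.00569). Under the WT label Dusp4 was 7.57 and 6.34 FPKM in the home cage and 8.65, 7.27 and 7.47 FPKM after exploration. These ranges overlapped, and the difference of 0.15 ± 0.15 was not called (limma adjusted p = 0.596). The averaged rise of 0.43 ± 0.10 (limma adjusted p = 0.00997) lost its call without WT-labelled or KO-labelled home cage library 2, with adjusted p up to 0.0537 over all alternatives.

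Promoter sequences are shown for Dusp1 and Dusp5, the genes with the largest changes, beside Dusp6, which changed by less. Each is the 250 bases before the RefSeq transcription start in build GRCm38.p6, read 5′ to 3′ on the gene's strand, and capitals mark matches to the motifs searched: Dusp1 at chr17:26508473-26508722 on the minus strand, Dusp5 at chr19:53528895-53529144 and Dusp6 at chr10:99262981-99263230, both on the plus strand.
Dusp1: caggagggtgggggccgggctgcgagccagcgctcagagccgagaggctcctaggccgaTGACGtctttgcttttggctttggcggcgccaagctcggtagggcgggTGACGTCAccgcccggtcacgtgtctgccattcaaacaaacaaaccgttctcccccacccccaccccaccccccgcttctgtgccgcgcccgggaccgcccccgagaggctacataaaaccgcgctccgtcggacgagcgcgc
Dusp5: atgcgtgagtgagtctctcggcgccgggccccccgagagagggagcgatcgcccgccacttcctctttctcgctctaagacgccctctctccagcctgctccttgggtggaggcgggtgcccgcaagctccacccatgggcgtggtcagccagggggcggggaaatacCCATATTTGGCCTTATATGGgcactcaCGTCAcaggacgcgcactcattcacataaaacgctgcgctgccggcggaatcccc
Dusp6: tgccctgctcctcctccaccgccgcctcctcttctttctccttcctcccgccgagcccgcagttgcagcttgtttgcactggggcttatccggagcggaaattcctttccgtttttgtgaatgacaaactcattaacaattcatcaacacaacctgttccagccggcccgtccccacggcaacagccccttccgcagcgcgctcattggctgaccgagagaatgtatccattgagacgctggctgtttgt
The Dusp1 stretch holds the full cAMP response element TGACGTCA, 143 to 136 bases before the start, and a further match to its core, CGTCA on the opposite strand, at 191 to 187. The Dusp5 stretch holds a pair of adjoining CArG boxes, the sequence bound by serum response factor, at 82 to 73 (CCATATTTGG) and 72 to 63 (CCTTATATGG), and the core CGTCA at 55 to 51. The Dusp6 stretch holds none of the motifs searched.

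The motifs were searched on both strands in the same window of 32851 RefSeq promoters. The full element TGACGTCA was present in 1.55% of them, its core CGTCA (also part of each full element) in 17.77% and a CArG box in 1.47%. The AP-1 motif TGANTCA was present in 6.75% and the TATA motif TATAAA in 12.37%. Median GC content of all these windows was 52.4%, against 68.4% for Dusp1, 64.0% for Dusp5 and 56.4% for Dusp6, and the shares were not matched for it. Promoters of 8 of the 10 genes were read. None was found for Dusp4, and the promoter of Spry4, on chromosome 18, was left out by choice. Beyond Dusp1 and Dusp5, Spred2 held the core CGTCA at 51 to 47 bases before its start, and the windows of Dusp3, Dusp14, Spry2 and Spred1 held none of the motifs. For Dusp3 and Dusp14 the window lies within the RefSeq span of the gene, so it precedes a start that is not the outermost one. These matches describe letters in the window, and binding was not measured. Bases just after the start were found in GENCODE, another transcript annotation, for all genes read except Dusp5 and Spred1.

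Dusp6 (MKP-3), the cytoplasmic phosphatase specific to ERK, was the most abundant member and rose by less than Dusp1 and Dusp5. In WT-labelled mice it was 81.15 and 74.34 FPKM in the home cage and 93.06, 102.78 and 101.65 FPKM after exploration. In KO-labelled mice it was 87.42 and 86.0 FPKM in the home cage and 116.21, 107.54 and 125.15 FPKM after exploration. No exploration library overlapped the home cage, and the ratios of means were 1.28 and 1.34. The averaged rise was 0.38 ± 0.06 on the log2 scale (limma adjusted p = 0.00115) and was called in all 17 alternatives tried, from 0.28 to 0.43. Under the WT label alone the rise of 0.35 ± 0.08 (limma adjusted p = 0.0311) lost its call in 8 of 18 alternatives, among them leaving out any 1 of the 5 WT-labelled libraries (adjusted p up to 0.296). In RefSeq the gene overlaps Gm34921, which has no values in the table, and the use of strand in counting is not given in the sources used here.

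The small phosphatases Dusp14 and Dusp3 lack the kinase-docking domain of the typical MAP kinase phosphatases. Dusp14 (MKP-6) was between 14.04 and 17.08 FPKM in the 4 home cage libraries and between 18.88 and 23.9 FPKM in the 6 exploration libraries. The ranges did not overlap, and the averaged rise was 0.34 ± 0.08 on the log2 scale (limma adjusted p = 0.00858). Dusp3 (VHR), a phosphatase of ERK and JNK, was 36.51 and 34.27 FPKM in WT-labelled home cage mice and 36.06, 35.94 and 34.97 FPKM after exploration, ranges that overlapped. In KO-labelled mice it was 33.59 and 31.44 FPKM in the home cage and 37.1, 41.83 and 37.89 FPKM after exploration, which did not. Dusp3 was called higher under the KO label (0.25 ± 0.08, limma adjusted p = 0.0293) and not in the averaged comparison (0.13 ± 0.05, limma adjusted p = 0.0783).

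The Sprouty genes encode membrane-linked inhibitors of receptor tyrosine kinase signalling. Spry2 was 26.96 and 20.6 FPKM in WT-labelled home cage mice, 23.74 and 20.69 FPKM in KO-labelled home cage mice, and 26.37 to 33.75 FPKM in the 6 exploration libraries. Only WT-labelled home cage library 1 reached into the exploration range. The averaged rise was 0.36 ± 0.09 on the log2 scale (limma adjusted p = 0.0107), and the call was lost without WT-labelled or KO-labelled home cage library 2 (adjusted p up to 0.0594 over all alternatives). Spry4 was 3.51 and 2.57 FPKM in WT-labelled and 4.04 and 3.52 FPKM in KO-labelled home cage mice. After exploration it was 4.31, 4.72 and 3.88 FPKM under the WT label and 3.73, 4.34 and 5.06 FPKM under the KO label. The environments overlapped, and the averaged rise of 0.28 ± 0.10 (limma adjusted p = 0.0463) lost its call in 8 of 16 alternatives, with adjusted p up to 0.201.

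The Spred genes, whose products bind Ras pathway proteins at the membrane and, for Spred1, recruit the Ras inhibitor neurofibromin, were not called in the 3 exploration comparisons with all libraries. Spred1 was 27.94 and 31.71 FPKM in WT-labelled and 38.73 and 38.85 FPKM in KO-labelled home cage mice, and 26.48 to 37.07 FPKM in the 6 exploration libraries. Its averaged difference was -0.11 ± 0.07 on the log2 scale (limma adjusted p = 0.272; 95% interval -0.26 to 0.05). Spred2 was 29.69 to 32.53 FPKM in the home cage and 19.02 to 30.92 FPKM after exploration, with the lowest value in 1 KO-labelled library. Its averaged difference was -0.18 ± 0.11 (limma adjusted p = 0.213; 95% interval -0.42 to 0.05), and -0.09 without KO-labelled exploration library 1, the lowest. Under the KO label the difference was -0.30, it was -0.10 without that library, and it was called at -0.43 without KO-labelled exploration library 3 (limma adjusted p = 0.0451, with a range of 0.0451 to 0.514 over the alternatives).

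**Figure D2:**
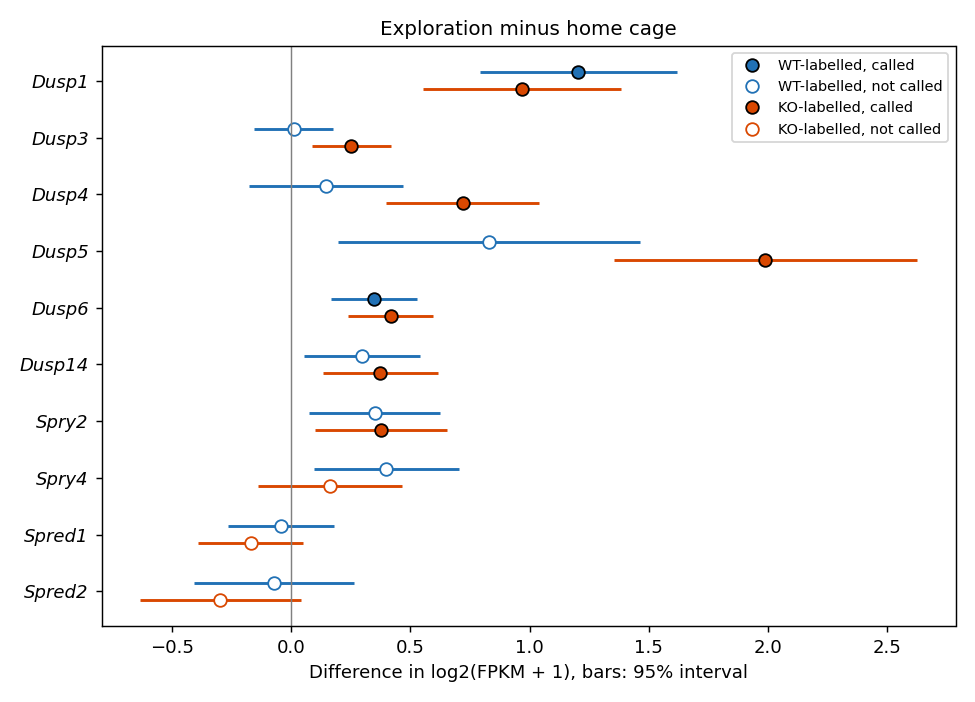
Difference between exploration and home cage in log2(FPKM + 1) (horizontal axis) for each gene under the WT and KO labels, from limma, with 95% intervals as bars and called differences as filled points. Dusp1 and Dusp6 are filled under both labels, and Dusp5 under the KO label lies farthest to the right, at 1.99.

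By label, 2 of the 10 genes (Dusp1 and Dusp6) were called higher in WT-labelled mice, where 2.02% of all genes tested were called higher and 4.29% lower. In KO-labelled mice 7 were called higher (Dusp1, Dusp3, Dusp4, Dusp5, Dusp6, Dusp14 and Spry2), against 12.0% of all genes called higher and 16.6% lower. No member was called lower under either label. Unadjusted p was under 0.05 for 6 and 7 members respectively, a level at which the share of all genes was not counted. The median change of the members was 0.32 and 0.38 on the log2 scale, and that of all genes -0.02 and -0.04. Most of these KO-labelled calls were lost without KO-labelled home cage library 2, which leaves 1 home cage mouse under that label. The changes then went from 0.969 to 0.941 for Dusp1, from 0.417 to 0.405 for Dusp6 and from 1.988 to 1.687 for Dusp5. They went from 0.719 to 0.61 for Dusp4 and from 0.252 to 0.206 for Dusp3. For Dusp14 they went from 0.374 to 0.247 and for Spry2 from 0.378 to 0.283. The library left out is the one with the lowest Wfs1 and the highest Fibcd1, both CA1 markers. The part of either level in the lost calls was not tested. The KO-labelled call of Spry2 was lost in 10 of 18 alternatives and those of Dusp14 and Dusp3 in 5 of 18 each. Fitting only the KO-labelled libraries left 4 members called. The WT-labelled count was 1, which was Dusp1, without any 1 of the 5 WT-labelled libraries.

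The difference between the labels in the exploration response was tested directly. None of the 10 genes was called in limma, against 0.875% of all genes called. Unadjusted p was under 0.05 for 3 members, and the share of all genes at that unadjusted level was not counted. Those 3 were Dusp5, Dusp4 and Dusp3. The response under the KO label exceeded that under the WT label by 1.16 ± 0.41 for Dusp5 (limma adjusted p = 0.182; 95% interval 0.26 to 2.06), by 0.57 ± 0.21 for Dusp4 (limma adjusted p = 0.195; 95% interval 0.12 to 1.03) and by 0.24 ± 0.11 for Dusp3 (limma adjusted p = 0.296; 95% interval 0.01 to 0.48). For Dusp5, leaving out library 1 of the WT-labelled home cage mice gave 0.73 and leaving out their library 2 gave 1.59. Leaving out library 2 of the KO-labelled home cage mice gave 0.86, with adjusted p between 0.0938 and 0.523 over all alternatives. For the other 7 genes the interval included 0, with estimates from -0.24 (Dusp1 and Spry4) to 0.08 (Dusp14).

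The home cage libraries themselves differed in the most responsive genes. Read as a percentage of the mean of the 6 exploration libraries, Dusp1 stood at 57.6% and 31.0% in the WT-labelled and at 48.1% and 46.1% in the KO-labelled home cage mice. Dusp5 stood at 62.0% and 32.4%, and at 31.9% and 19.6%. Both genes were highest in WT-labelled home cage library 1. The same library was also the highest home cage library for Fos (16.28 FPKM against 2.5, 7.16 and 6.72) and Egr1 (204.89 FPKM against 108.66, 139.39 and 113.6), immediate early genes that are textbook markers of recent neuronal activity. Dusp4 stood at 93.1% and 78.0% in the WT-labelled and at 63.1% and 52.5% in the KO-labelled home cage mice, so both WT-labelled mice were above both KO-labelled mice. Dusp6 kept a narrow band of 69.0% to 81.1%. The part of this spread in the label comparisons of Dusp1 and Dusp5 was measured by leaving out each library, given with those values, and its cause was not tested.

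**Figure D3:**
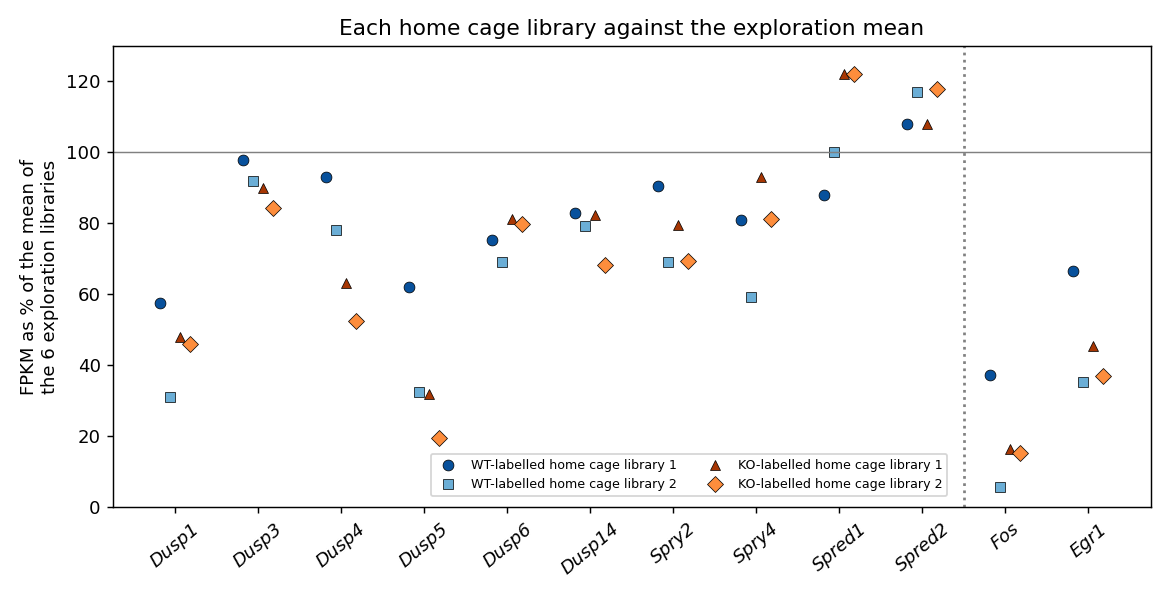
FPKM of each of the 4 home cage libraries as a percentage of the mean of the 6 exploration libraries (vertical axis), for the 10 genes and, right of the dotted line, Fos and Egr1. WT-labelled library 1 is the highest of the 4 for Dusp1 (57.6%), Dusp5 (62.0%), Fos (37.2%) and Egr1 (66.7%), and the Spred genes lie near or above 100%.

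The second question was whether the genotype labels differed within an environment, where the libraries compared stand in the same block. Between labels, 0 of the 10 genes were called in limma in the home cage, where 3.57% of all genes were called in either direction, and 0 after exploration, where 0.597% were. Averaged over the environments 0 members were called, against 2.13% of all genes. Unadjusted p was under 0.05 for 3 members in the home cage, 2 after exploration and 2 averaged, with no count of all genes at that level. The median difference of the members was -0.04, 0.05 and -0.03 on the log2 scale, and that of all genes -0.02 in both environments and -0.01 averaged.

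Spred1 came nearest to a call. It was 27.94 and 31.71 FPKM in WT-labelled and 38.73 and 38.85 FPKM in KO-labelled home cage mice, and 27.53, 33.05 and 26.48 FPKM against 33.63, 32.53 and 37.07 FPKM after exploration. In the home cage the labels did not overlap, while after exploration 1 WT-labelled library (33.05) lay within the KO-labelled range. The averaged difference was 0.31 ± 0.07 on the log2 scale (limma adjusted p = 0.0507), and adjusted p ran from 0.031 to 0.182 over the alternatives. Spred1 was called with a filter of 5 FPKM, with size factors, with quantile normalization, with robust empirical Bayes and without WT-labelled exploration library 2. Markers of several other cells also separated the home cage libraries by label, in a comparison where 3.57% of all genes were called in either direction. Astrocyte markers summed to 109.7 to 120.6 FPKM in WT-labelled and to 157.9 to 196.5 FPKM in KO-labelled home cage mice, with 2 of 8 called higher. Oligodendrocyte markers summed to 154.5 to 180.4 against 211.0 to 252.7 FPKM, microglia markers to 38.86 to 42.89 against 53.33 to 58.46 FPKM and endothelial markers to 21.87 to 22.57 against 27.65 to 34.11 FPKM, each with 1 gene called higher. Dentate granule markers summed to 18.85 to 23.12 against 5.46 to 9.53 FPKM, with 1 called lower. Choroid plexus markers (17.84 to 235.8 against 9.48 to 14.23 FPKM) also had 1 called lower. Sums of CA2 and CA3 markers were lower too (123.3 to 257.7 against 111.1 to 112.2 FPKM). Those of oligodendrocyte precursors were higher (3.47 to 3.88 against 4.63 to 7.37 FPKM). Interneuron (215.0 to 239.3 against 229.2 to 248.7 FPKM), CA1 and blood sums overlapped between the labels. The part of these cells in the label differences of Spred1 and the other members was not tested.

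For Dusp6 the averaged difference between labels was 0.19 ± 0.06 and missed the threshold (limma adjusted p = 0.0998). Its 3 KO-labelled exploration libraries (107.54 to 125.15 FPKM) lay above the 3 WT-labelled ones (93.06 to 102.78 FPKM). In the home cage the KO-labelled minus WT-labelled difference of Dusp4 was -0.48 ± 0.16 on the log2 scale (limma adjusted p = 0.132) and that of Dusp5 -0.75 ± 0.32 (limma adjusted p = 0.234), neither of them called. The Dusp5 value was -0.32 without WT-labelled library 1. Dusp4 is the single member on the chromosome of Neil3: in GRCm38.p6 it lies at chr8:34807610-34819894, 18.8 Mb from Neil3 at chr8:53586867-53639065, and the part of that position in its values was not tested.

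**Figure D4:**
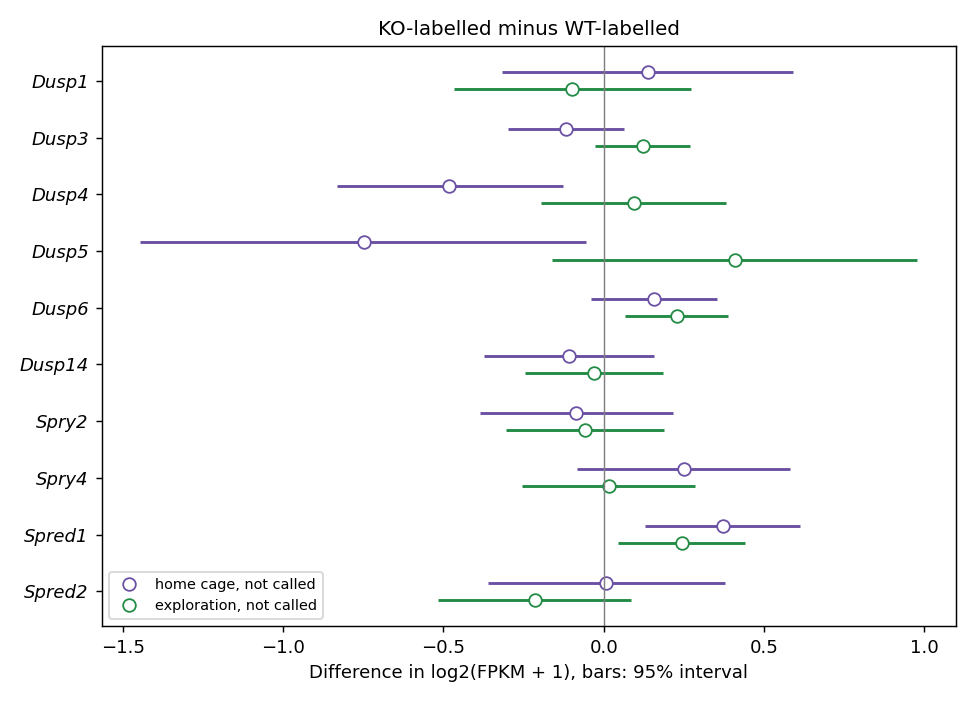
Difference between KO-labelled and WT-labelled libraries in log2(FPKM + 1) (horizontal axis) for each gene in the home cage and after exploration, from limma, with 95% intervals as bars. All points are open because 0 of 10 genes were called in either environment, and the longest bars are those of Dusp5.

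The rest of the pathway gave the surroundings of these changes, in lists written with earlier results of these data known. Of the other typical MAP kinase phosphatases, 3 of 6 were tested, 0 were called higher and 1 lower in the averaged exploration comparison: Dusp7, the cytoplasmic relative of Dusp6, fell from 39.67 ± 2.38 (SD, n = 4) to 33.04 ± 0.907 FPKM (SD, n = 6), a log2 change of -0.26 (limma adjusted p = 0.0053). The 2 others tested, Dusp8 and Dusp10, had log2 changes of 0.05 and 0.08 and were not called, and the list median was 0.05. Of 8 atypical dual-specificity phosphatases tested, 0 were higher and 3 lower (Dusp11, Dusp18 and Dusp23), with a list median of -0.08. The widest change was in Dusp11, a phosphatase of RNA rather than of kinases, at 8.63, 10.31, 5.61 and 6.99 FPKM in the home cage and 1.3 to 2.51 FPKM after exploration. Spred3 fell from 13.96 ± 1.22 (SD, n = 4) to 9.488 ± 2.02 FPKM (SD, n = 6), a log2 change of -0.53 (limma adjusted p = 0.000844). Spry1 and Spry3, the remaining Sprouty genes, had log2 changes of -0.06 and 0.05 and were not called, so that of these 3 genes 0 were higher and 1 lower.

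Higher up, 12 of 19 receptors and ligands were tested, of which 1 was called higher and 2 lower, with a median of -0.01. The ligand Bdnf was higher (log2 change 0.22, limma adjusted p = 0.0226), and the receptor Ntrk3 was lower (-0.42, limma adjusted p = 0.000882). The other lower call was Met, which entered the test only through the 2 KO-labelled home cage libraries (1.19 and 1.46 FPKM, against 0.02 to 0.37 FPKM in the other 8), so its call rests on the group that admitted it. In the chain from Ras to ERK, 2 of 30 genes were higher, Hras (0.37) and Araf (0.25), and 9 were lower, beside the 12.6% higher and 19.2% lower of all genes. The list median was -0.10 against -0.033 for all genes. Frs2, the adaptor that links FGF receptors to Ras, was lower under both labels (-0.50 and -0.38, limma adjusted p = 0.0086 and 0.00991). Ksr2, a scaffold of the kinase chain, reached 1 FPKM only in home cage libraries, which fixes its direction. Mapk3, which encodes an ERK kinase itself, was lower in the average (-0.53, limma adjusted p = 0.00715) and under the KO label (-1.10, limma adjusted p = 0.00199), with 0.04 under the WT label (limma adjusted p = 0.924). Its 2 KO-labelled home cage libraries (50.24 and 54.41 FPKM) were the highest of all 10. In the p38 and JNK branch 0 of 10 were higher and 2 lower, Map2k3 (-0.26) and Map2k4 (-0.15), with a median of -0.11. That share of lower calls is near the 19.2% of all genes.

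Of 11 other transcripts known as outputs of ERK tested, 2 were higher, Fos (2.50 ± 0.32) and Egr1 (1.15 ± 0.15), and 1 was lower, the transcription factor Etv1 (-0.51). The change of Etv1 was -0.93 under the KO label (limma adjusted p = 0.00111) and -0.09 under the WT label (limma adjusted p = 0.694). Etv5 had a log2 change of 0.14 and was not called. The list median was 0.14. Set beside these, the averaged change of Dusp5 (1.41) lay between those of Egr1 and Fos. That of Dusp1 (1.09 ± 0.13) was close to that of Egr1, with a gap smaller than the standard error of either. Dusp6, Spry2 and Spry4 had 0.28 to 0.38. Differences in change between genes were not tested. Among 4 other protein phosphatases tested that act on ERK in neurons, the catalytic subunits Ppp2cb (0.19) and Ppp2ca (0.16) were higher, and Ptpn5 (STEP) was not called (-0.06), with a list median of 0.11.

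**Figure D5:**
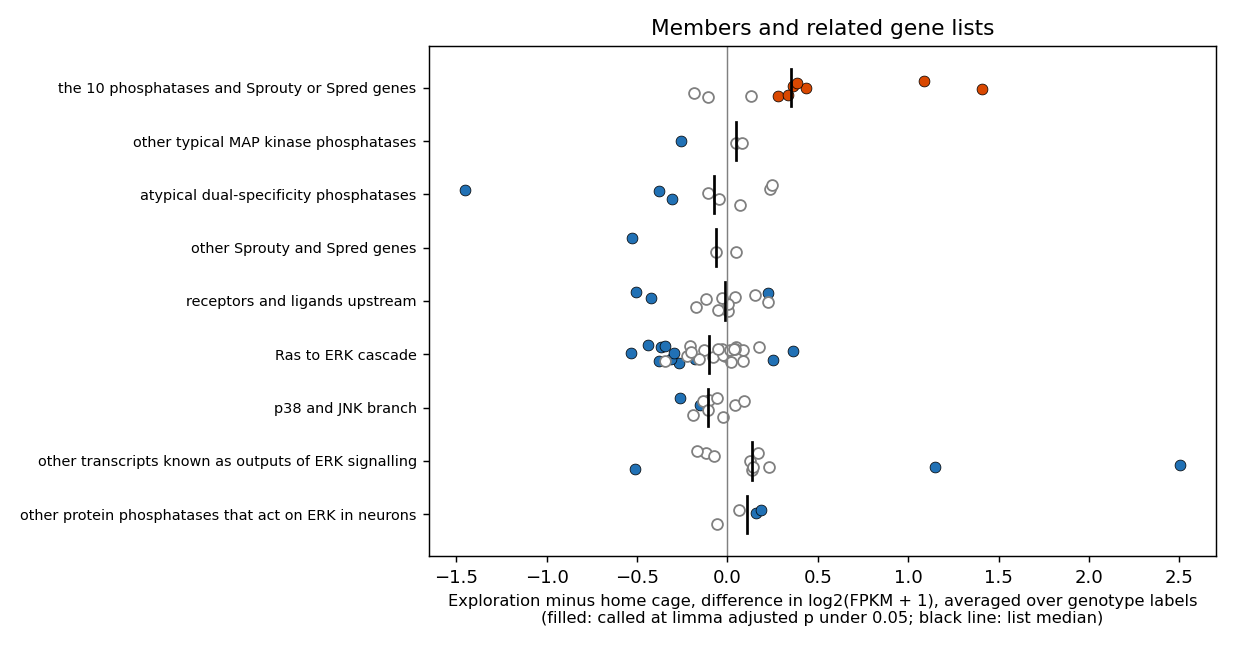
Averaged exploration difference in log2(FPKM + 1) (horizontal axis) of each tested gene in the group of 10 and in 8 lists of related genes, filled where limma called it, with a black line at each list's median. The 10 genes have a median of 0.35; the Ras to ERK list has one of -0.10, and Fos stands farthest right at 2.50.

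For each member that was called, the tested genes with the nearest profile were those with the smallest root mean square difference, in log2(FPKM + 1) over 10 libraries after centring each gene. Dusp1 was nearest to Egr4 (0.15) and Junb (0.15), both immediate early transcription factor genes, and its own spread about its mean on that scale was 0.57. Dusp5 was nearest to Arl4d (0.25), a small GTPase, and Nrtn (0.26), the ligand neurturin, with a spread of 0.82. For the other 5 genes the distances were 0.06 to 0.11 and their own spreads 0.20 to 0.30. Dusp6 was nearest to Idnk and Itpk1, Dusp4 to Pitpnc1 and H2-D1, Dusp14 to Park7 and Sf3b5, Spry2 to Nudt22 and Fbl, and Spry4 to Hist2h2aa1 and Arf3. The distances are descriptions over libraries that share environment and label.

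Markers of other cells moved with environment too. In the averaged comparison limma called higher 3 of 8 interneuron, 3 of 8 astrocyte, 4 of 8 oligodendrocyte and 5 of 8 microglia markers and 4 of 4 tested blood genes. None of these lists held a lower one, beside the 12.6% higher and 19.2% lower of all genes. Under the WT label the higher calls in these lists were 1, 3, 4, 3 and 3 in that order, against 2.02% of all genes. Under the KO label they were 2, 1, 0, 0 and 1, against 12.0% of all genes. Interneuron markers summed to 215.0 to 248.7 FPKM in the home cage and to 279.7 to 362.8 FPKM after exploration, and blood genes to 94.85 to 154.1 and 159.9 to 308.1 FPKM. Microglia markers summed to 38.86 to 58.46 and 51.56 to 64.12 FPKM, oligodendrocyte markers to 154.5 to 252.7 and 217.0 to 394.7 FPKM, and astrocyte markers to 109.7 to 196.5 and 127.5 to 185.6 FPKM. Of the 8 CA1 markers 3 were called higher and 3 lower, of 5 tested CA2 and CA3 markers 3 higher, of 3 dentate markers 1 higher, and of endothelial, choroid plexus and oligodendrocyte precursor markers none. Choroid plexus markers summed to 17.84 and 235.8 FPKM in the 2 WT-labelled home cage libraries and to 16.26 to 131.8 FPKM in the WT-labelled exploration libraries, against 9.48 to 16.58 FPKM under the KO label. No marker was at 0 in all 10 libraries, and the part of these cells in the values of the phosphatase, Sprouty and Spred genes was not tested.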

How the data were processed

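The authors deposited FPKM values per gene and library, scaled to transcript length and library depth. The submitters' processing notes name HISAT, StringTie, GATK, Bowtie2 and RSEM and the build GRCm38 (mm10), with no role or order. The blocks for exploration (19156 genes) and home cage (18257 genes) were joined on gene ID. Each group was fitted as 1 mean with limma 3.58.1 (R 4.3.3, variance trend) on log2(FPKM + 1), which understates changes of low genes. A gene entered at 1 FPKM or more in 2 or more libraries; 11892 did, all 10 members among them. Benjamini-Hochberg adjustment ran over all tested genes, with 6 residual and a median of 5.71 prior degrees of freedom. Environment, label and their interaction gave 7 comparisons. The depth estimate used transcript lengths less 100 nt (17300000 to 18600000 fragments per library with no offset). Replicate numbers only name libraries, each from a separate mouse per the labels. All members were named, with up to 3 called genes of each related list by size of change, and the 2 nearest profiles of each called member. Dusp8, Dusp10, Spry1, Spry3, Hras, Araf, Etv5 and Ptpn5 were named after their values were seen. Members and lists were chosen with earlier results of these data known. Sequences and positions came from RefSeq. The fit was tested on simulated data. The fit was repeated with each library left out, with the compared groups alone, with robust empirical Bayes, without the variance trend, after quantile normalization or size factors, with a filter of 5 FPKM or none, and with a pseudocount of 0.1.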

Additional observations from a re-analysis of the deposited data

How the results depend on the processing

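The averaged exploration rises of Dusp1, Dusp5, Dusp6 and Dusp14 and the WT-labelled rise of Dusp1 and KO-labelled rise of Dusp5 kept direction and call in all alternatives run. Of these, the averaged rise of Dusp14 came nearest to losing its call, at 0.272 without KO-labelled home cage library 2, against 0.336 with all libraries. The count of members higher after exploration under the WT label was 1 with no filter, quantile normalization or no variance trend, and 1 to 2 with a library left out. Under the KO label it was 4 with only the groups compared and 1 to 7 with a library left out, and averaged it was 4 to 7 with a library left out. Averaged over environments, 1 member (Spred1) differed by label with a filter of 5 FPKM, size factors, quantile normalization or robust empirical Bayes, and 0 to 1 with a library left out. Among all genes, calls under the WT label were 440 with no filter, 492 with a filter of 5 FPKM, 1710 with only the groups compared and 84 to 1004 with a library left out, against 750. Under the KO label they were 1700 with only the groups compared and 505 to 3568 with a library left out, and averaged 1916 to 4248. For label in the home cage they were 27 with no filter and 13 to 588 with a library left out. For label after exploration they were 10 with no filter, 37 with no variance trend or only the groups compared, and 17 to 104 with a library left out. For label averaged they were 47 with no filter, 427 with quantile normalization and 28 to 319 with a library left out. For the difference in response they were 0 with a pseudocount of 0.1, no filter or no variance trend, 68 with a filter of 5 FPKM and 0 to 436 with a library left out, against 104. Share of higher genes among calls under the KO label was 42.0% as deposited and 54.6% with size factors. The cause was not tested in these cases, beyond the fewer samples or other gene set that a setting holds by construction.

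Signs turned in uncalled differences only. Dusp3 gave -0.015 for exploration under the WT label and -0.007 for label averaged with quantile normalization, and with a library left out -0.033 to 0.056 and -0.024 to 0.025. With a library left out, Dusp1 ran from -0.27 to 0.545 for label in the home cage, -0.183 to 0.023 after exploration, -0.184 to 0.224 averaged and -0.643 to 0.172 for the difference in response. Dusp14 ran from -0.235 to 0.019 in the home cage, -0.089 to 0.066 after exploration and -0.05 to 0.204 for the difference in response. Spry2 ran from -0.271 to 0.101, -0.162 to 0.01 and -0.165 to 0.021 for label in the home cage, after exploration and averaged, and -0.159 to 0.213 for the difference in response. Label after exploration gave -0.048 to 0.211 for Dusp4 and -0.075 to 0.104 for Spry4, label averaged -0.385 to 0.044 for Dusp5, label in the home cage -0.052 to 0.068 for Spred2, and exploration under the WT label -0.136 to 0.046 for Spred1.

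No paired analysis was possible because the labels give the libraries of the compared groups no shared replicate numbers. Spry4 has no value with a filter of 5 FPKM, and fitting only the groups compared does not apply to the averaged comparisons or the difference in response. With 2 home cage mice per label, leaving 1 out assumes that the other varies like the remaining groups. Depth was alike across libraries, but without deposited counts the counting error of Spry4 and Dusp4, the lowest genes, was not modelled.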
